A study of Mus musculus with 32 samples.

Results

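The genes H3f3a, H2az1 and Dek were followed in mice that had been cloned by nuclear transfer, in the liver and the spleen. H3f3a encodes histone H3.3, H2az1 encodes histone H2A.Z, and Dek encodes a chromatin protein that binds DNA and has been described as a histone chaperone. Members were the rows of the deposited table that carry these symbols, which gave 4 rows of 20794, or 3 genes of 9026 named ones. H3f3a and Dek had 1 row each and H2az1 had 2, and every member row had a value on all 32 arrays. They were chosen by their measured ratios, since earlier results of these data had shown low H3f3a in both livers, low Dek in wildtype spleen and high H2az1 in Dll1 spleen. Values in those groups are therefore a description with no test.

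The study hybridised total RNA of liver and spleen on 2-colour arrays, 32 in all. The cloned wildtype mice were set against a pool of conventional wildtype mice, and the cloned Dll1 mice against a pool labelled as Dll1 heterozygotes. Dll1 encodes a ligand of the Notch receptors. All mice, pools included, were male, of strain 129/SvJ and 18 to 19 weeks old, and the same 4 cloned mice of each genotype gave both organs. Each mouse was measured on 2 arrays, once in Cy5 and once in Cy3, and the mean of both is its value (n = 4 mice per group). The labels name no donor cell line and do not say whether the 4 clones of a genotype came from 1 donor. They list 4 animals per pool whereas the labelling protocol speaks of 6. The pool is 1 reference RNA per genotype and organ, so its own animal-to-animal spread does not enter any test.

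All values are log2 ratios, read as cloned mouse over pool from the word order of the titles, so that -1 is a halving relative to the pool. They carry no level, so neither the organ nor a cell type can be checked by how much of a marker was present. The direction rests on that word order and is not settled. Across rows the mean ratios of the Cy5 and Cy3 arrays correlated at -0.70 in wildtype liver and -0.258 in Dll1 liver. They correlated at -0.384 in wildtype spleen and -0.298 in Dll1 spleen. Means of the members are therefore also given with the sign of the Cy3 arrays turned, as are counts from the gene lists. Other single genes are given as deposited unless a turned value is stated. The spread between mice was larger in spleen, with a median SD per feature of 0.45 in Dll1 and 0.28 in wildtype spleen against 0.11 and 0.0869 in the livers. In whole organs, fewer cells of a type and less RNA per cell cannot be told apart.

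Gene names rest on a shift of 11 rows between the values and the platform's probe names. At that shift, 2875 same-gene pairs of rows outside the stretch from row 9000 to row 15000 agreed best among 401 shifts tried. Their mean correlation over the mice was only 0.0319, against 0.0256 at the best other shift. For 509 pairs with both rows inside that stretch the mean was 0.000222, rank 233 of 401. Those pairs gave 0.0302 with no shift and 0.0589 at the best other shift. For 1664 pairs with 1 row inside the stretch the mean at the shift of 11 was 0.0191, rank 3. The Dek row, 14954, and the H2az1 row 14047 lie inside the stretch, while H3f3a (row 19772) and the H2az1 row 6830 lie outside it. Single genes inside the stretch, picked after their values were seen, did match: Pcna row 10319 correlated at 0.934 with Pcna row 4861, and Car2 row 10494 at 0.986 with Car2 row 4032.

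Histone variants are built into chromatin outside DNA replication. H3.3 is placed by the HIRA complex in active genes and by DAXX and ATRX in heterochromatin, and the same protein is encoded by H3f3a and H3f3b. H2A.Z sits beside transcription start sites, is put in by the SRCAP and EP400 (TIP60) complexes and can be removed by ANP32E. Dek alters DNA topology and has been linked to heterochromatin through HP1 and to H3.3 as a chaperone, and it is abundant in proliferating cells. Adult mouse spleen, unlike adult liver, still makes red blood cells.

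Promoter sequences are shown for the members, for H3f3b, which shares the product of H3f3a, and for Hba-a1 and Rrm2, whose values were most like those of the H3f3a row and of Dek. The annotation in GRCm38.p6 places H3f3a (NM_008210) at chr1:180802560-180813605, H2az1 (NM_016750) at chr3:137864487-137866922 and Dek (NM_025900) at chr13:47084767-47107530. Each sequence is the 250 bases before the start given in RefSeq's promoter table, printed 5′ to 3′ on the gene's strand, with the motif CCAAT or its reverse complement ATTGG in capitals. For Dek that start lies inside the annotated span, so its window does too. H3f3a is chr1:180813606-180813855 on the minus strand, H3f3b is chr11:116024505-116024754 on the minus strand and Hba-a1, an alpha globin gene, is chr11:32283422-32283671 on the plus strand. H2az1 is chr3:137864237-137864486 on the plus strand, Dek is chr13:47106222-47106471 on the minus strand and Rrm2, a subunit of ribonucleotide reductase, is chr12:24708004-24708253 on the plus strand.
H3f3a: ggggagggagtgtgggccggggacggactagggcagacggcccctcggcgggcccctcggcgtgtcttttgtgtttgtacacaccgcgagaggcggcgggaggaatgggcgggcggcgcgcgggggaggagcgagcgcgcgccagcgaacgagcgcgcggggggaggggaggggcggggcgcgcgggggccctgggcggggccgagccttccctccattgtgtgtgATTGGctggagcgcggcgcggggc
H3f3b: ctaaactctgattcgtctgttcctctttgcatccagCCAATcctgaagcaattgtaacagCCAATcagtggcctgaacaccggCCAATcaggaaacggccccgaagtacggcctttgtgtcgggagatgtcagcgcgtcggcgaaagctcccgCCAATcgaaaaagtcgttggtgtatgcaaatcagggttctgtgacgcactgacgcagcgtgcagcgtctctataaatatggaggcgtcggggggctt
Hba-a1: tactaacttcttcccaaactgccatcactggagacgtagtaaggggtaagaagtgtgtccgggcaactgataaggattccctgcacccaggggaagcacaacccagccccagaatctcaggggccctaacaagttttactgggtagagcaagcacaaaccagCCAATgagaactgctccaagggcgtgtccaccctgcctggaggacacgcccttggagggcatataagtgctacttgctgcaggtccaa
H2az1: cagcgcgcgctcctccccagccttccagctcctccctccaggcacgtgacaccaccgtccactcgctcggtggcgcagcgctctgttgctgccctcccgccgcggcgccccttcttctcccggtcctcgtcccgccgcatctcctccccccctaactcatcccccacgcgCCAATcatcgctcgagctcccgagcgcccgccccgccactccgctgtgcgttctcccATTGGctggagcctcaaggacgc
Dek: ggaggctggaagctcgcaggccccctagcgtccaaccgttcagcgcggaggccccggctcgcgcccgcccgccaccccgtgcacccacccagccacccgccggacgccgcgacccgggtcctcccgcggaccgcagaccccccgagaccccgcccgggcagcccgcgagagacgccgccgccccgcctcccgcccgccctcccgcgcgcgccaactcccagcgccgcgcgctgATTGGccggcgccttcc
Rrm2: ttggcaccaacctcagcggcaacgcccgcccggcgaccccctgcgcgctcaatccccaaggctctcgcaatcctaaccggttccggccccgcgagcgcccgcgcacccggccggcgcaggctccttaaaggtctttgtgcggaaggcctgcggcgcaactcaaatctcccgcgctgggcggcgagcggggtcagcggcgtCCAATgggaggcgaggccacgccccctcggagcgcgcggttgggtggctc

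The member promoters were rich in G and C, at 77.2% in H3f3a, 71.2% in H2az1 and 81.2% in Dek, against a median of 52.4% over 32851 mouse promoters of the same length. They held 35, 28 and 41 CpG dinucleotides, whereas Hba-a1 held 4 at 54.0% G and C. A CCAAT on either strand occurred once in H3f3a and Dek, in 2 places in H2az1, and in 33.8% of all promoters. GGGCGG, the core of a GC box, occurred 4 times in H3f3a, once in H2az1, 5 times in Dek and nowhere in the Hba-a1 window, and in 32.7% of all promoters. TATAAA was in none of the 3 member windows and in 12.4% of all promoters. The E2F-type motifs TTTCGCGC, TTTGGCGC and TTTCCCGC were in none of these 6 windows and in 0.256%, 0.417% and 0.895% of all promoters. All motifs were searched on both strands with overlaps allowed, and a match is only a match of letters.

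The H3f3a row averaged below the pool in all 4 groups, and below H2az1 and Dek in all but wildtype spleen, where Dek was lower. In the 4 cloned wildtype livers it was -1.18, -0.50, -0.58 and -0.74, a mean of -0.75 ± 0.30 (SD, n = 4), or 0.595 times the pool. All 4 mice and 8 of 8 arrays were below 0, with 1 mouse lower than the other 3. In the cloned Dll1 livers it was -0.50, -0.82, -0.39 and -0.0755, a mean of -0.45 ± 0.31 (SD, n = 4), with 7 of 8 arrays below 0. The livers of both genotypes overlapped. Both groups chose the gene, so no test is given. All 4 mice were below 0 for 9.02% of features in wildtype liver and for 9.85% in Dll1 liver.

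The spleens were not used in choosing H3f3a. In the cloned wildtype spleens the row was -0.39, -0.78, -0.007 and -0.39, a mean of -0.39 ± 0.31 (SD, n = 4), with 6 of 8 arrays below 0. It did not pass (limma, SE 0.147, adjusted p = 0.799, below 0 in 4 of 4 mice). In the cloned Dll1 spleens the row was -2.34, -1.26, 0.0055 and -0.66, a mean of -1.06 ± 0.995 (SD, n = 4), or 0.479 times the pool. That mean did not pass either (limma, SE 0.39, adjusted p = 0.838, below 0 in 3 of 4 mice). The Dll1 mice thus ran from no shift to the lowest value of any mouse, and their range enclosed every wildtype spleen. The difference between genotypes in spleen was -0.67 (limma, SE 0.46, adjusted p = 0.882).

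Across all features, limma called 18 of 17037 in wildtype liver (0.106%, 1 higher and 17 lower) at an adjusted p under 0.05. It called 0 of 17009 in wildtype spleen (0%), 0 of 17037 in Dll1 liver (0%) and 0 of 16999 in Dll1 spleen (0%). At an unadjusted p under 0.05 these counts were 1985 (11.7%), 1014 (5.96%), 942 (5.53%) and 823 (4.84%). Tests of the difference between genotypes called 0 features (0%) in liver and in spleen, where 4.91% and 4.6% had an unadjusted p under 0.05. Tests between organs called 0 features (0%) in wildtype and in Dll1 mice, where 9.48% and 7.58% did. No member passed in a comparison that left out every group in which it was chosen. The other comparisons of a member are given with no test.

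Both arrays of a mouse agreed for the H3f3a row in the spleens where it was lowest. In the Dll1 spleen of mouse 1 it was -2.11 in Cy5 and -2.56 in Cy3, and in mouse 2 it was -1.24 and -1.28. In mouse 3 it was 0.088 and -0.077, and in mouse 4 it was -0.31 and -1.004. The wildtype spleens split more by dye, and their Cy3 arrays averaged -0.74. With the Cy3 arrays turned, the means would be 0.27 in wildtype liver, -0.0715 in Dll1 liver, 0.35 in wildtype spleen and 0.17 in Dll1 spleen, so on that reading 3 of the 4 means lie above 0. The Cy5 arrays, whose sign no reading changes, averaged -0.48, -0.52, -0.0437 and -0.89 in these groups.

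**Figure D1:**
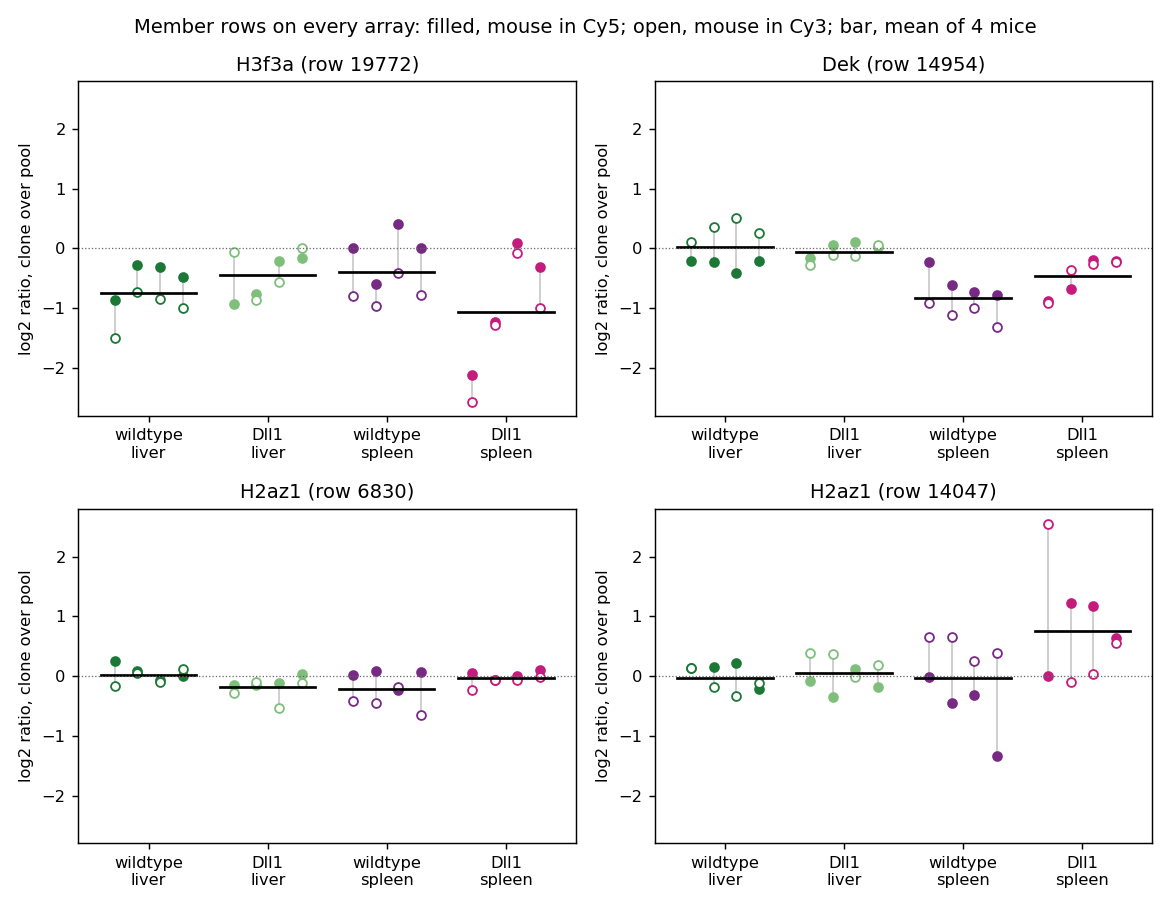
Log2 ratio (cloned mouse over pool) of the 4 member rows on every array, by group; each pair of joined points is 1 mouse, filled with the mouse in Cy5 and open with the mouse in Cy3, and the bar is the mean of 4 mice. The H3f3a row is below 0 on 8 of 8 wildtype liver arrays and the Dek row on 8 of 8 arrays in each spleen group, while the H2az1 rows differ from each other in Dll1 spleen.

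Over the 16 mouse values the H3f3a row followed alpha globin more closely than the other H3.3 gene. What the spot holds was not tested. Among 8717 named genes with all 16 values (8 mice in 2 organs), the 3 most like it were Hba-a1 (Pearson r = 0.962, mean of 6 rows), Ucma (0.951) and Nup155 (0.942). Ucma encodes a secreted cartilage protein and Nup155 a nuclear pore protein. Single Hba-a1 rows correlated with it at 0.868 to 0.967. The rank correlation with Hba-a1 was 0.921, and r was 0.883 without the 2 values farthest out, both Dll1 spleens. Within organs r was 0.886 over 8 livers and 0.992 over 8 spleens. These values share mice, pools and arrays, and the likeness is a description.

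Hba-a1 itself was -0.75, -0.56, -0.53 and -0.41 in wildtype livers and -0.29, -0.59, -0.29 and -0.14 in Dll1 livers. In wildtype spleens it was -0.44, -0.71, -0.0291 and -0.31, and in Dll1 spleens it was -2.22, -1.13, -0.23 and -0.66. In both spleen groups and in Dll1 liver, the lowest and the highest animal were those of the H3f3a row, and in wildtype liver the lowest. The means were also close, at -1.06 ± 0.86 (SD, n = 4) for Hba-a1 in Dll1 spleen and -0.37 ± 0.28 in wildtype spleen.

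H3f3b, which encodes the same protein as H3f3a, had 2 rows and kept near the pool. Its mean was -0.13 ± 0.073 (SD, n = 4) in wildtype liver, -0.11 ± 0.0619 in Dll1 liver, -0.15 ± 0.158 in wildtype spleen and 0.0838 ± 0.194 in Dll1 spleen. In the Dll1 spleens of mice 1 and 2, where the H3f3a row was lowest, H3f3b was -0.0628 and -0.10. Over the 16 values it correlated with the H3f3a row at 0.0939. Within groups of 4 mice r was -0.164 in wildtype liver, -0.0389 in Dll1 liver, 0.141 in wildtype spleen and 0.811 in Dll1 spleen. Both H3f3b rows lie inside the stretch of less certain names. Over the 16 values their own correlations with the H3f3a row were 0.0966 and 0.0752.

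Of 19816 rows with all 16 values, 22 (0.111%) correlated with the mean of Hba-a1 above 0.95, and the H3f3a row was the 19th of them. Among the 22 were 4 rows named Hba-a1, 10 with no name and 8 with other names: Nup155, Ucma, Mark3, Gamt, Il6st, Tap1, Slc43a2 and H3f3a. The Hba-a1 row 19763 stands 9 rows from the H3f3a row. The 30 other rows within 20 of it had a median r with Hba-a1 of 0.126 and a highest of 0.805, against a median of -0.0301 over all rows. By place, 13 of the 22 lay in rows 15362 to 15673, and 7 in rows 19132 to 20675, the H3f3a row among them. The others were rows 2960 and 4263. Whether place or anything else links the values of these 22 rows was not tested. The values below are those of the H3f3a row rather than of H3.3 transcripts as such.

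**Figure D2:**
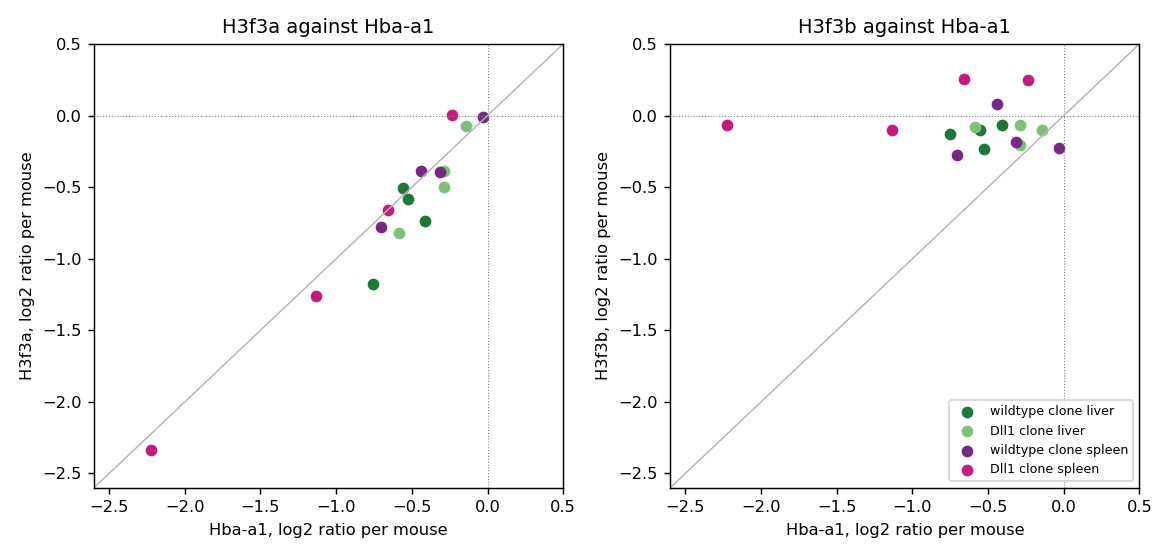
Log2 ratio per mouse (cloned mouse over pool) of the H3f3a row and of H3f3b, both against Hba-a1, 1 point per mouse and organ (16 points), with the line of equal values in grey. The H3f3a row runs along the line (r = 0.962), while H3f3b stays near 0 where Hba-a1 is at -2.22.

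Markers of red cell precursors lay mostly below the pool in spleen. Of 23 listed erythroid genes 14 were measured, Hba-a1 and Car2 among them. Their median per mouse was -1.12, -0.75, -0.0559 and -0.18 in Dll1 spleens 1 to 4 and -0.34, -0.63, -0.36 and -0.38 in wildtype spleens. In the livers the medians lay between -0.0493 and 0.0333, although the H3f3a row and Hba-a1 were below 0 there too. In group means 12 of 14 were below 0 in Dll1 spleen (median -0.48) and 11 of 14 in wildtype spleen (median -0.34), where all features had medians of 0.006 and 0.0111 and 49.2% and 47.3% of them were below 0. With the Cy3 arrays turned, 3 and 5 of 14 would be below 0, with medians of 0.0648 and 0.167. In wildtype spleen mouse 3 the list median was -0.36 while the H3f3a row was at -0.007. None of the 14 passed the threshold in either spleen group, where 0% of all features passed. In wildtype liver, where 0.106% of all features passed, 1 of the 14, Hba-a1, passed as lower. Its mean was -0.56 ± 0.14 (SD, n = 4, limma adjusted p = 0.0405, below 0 in 4 of 4 mice). The call was lost without mouse 1 (adjusted p = 0.0561), mouse 2 (0.116) or mouse 3 (0.322) but not without mouse 4 (0.0291), and with the Cy3 arrays turned the mean would be 0.00585. Hepatocyte markers were also below the pool in liver, 13 of 13 measured in wildtype (median -0.19, 1 passing as lower; limma, 0.05 threshold) and 12 of 13 in Dll1 mice (median -0.0841, none passing), where 45.2% and 51.7% of features were. Turned, 4 and 7 of 13 would be below 0. The part of red cell or hepatocyte content in the values of the H3f3a row was not tested.

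H2az1, the gene of H2A.Z, stayed near the pool in 3 groups and lay above it in Dll1 spleen, in 1 of its 2 rows. As the mean of both rows it was 0.0907, 0.0278, -0.073 and -0.0505 in wildtype livers, a mean of -0.00125 ± 0.075 (SD, n = 4; limma, SE 0.0423, adjusted p = 0.994). In Dll1 livers it was -0.0335, -0.0578, -0.137 and -0.0232, a mean of -0.0628 ± 0.0514 (limma, SE 0.0431, adjusted p = 0.799, below 0 in 4 of 4 mice). In wildtype spleens it was 0.057, -0.042, -0.117 and -0.38, a mean of -0.12 ± 0.189 (limma, SE 0.111, adjusted p = 0.838, below 0 in 3 of 4 mice).

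The Dll1 spleens, which chose the gene, had 0.59, 0.25, 0.29 and 0.32, a mean of 0.36 ± 0.15 (SD, n = 4). All 4 were above the highest wildtype spleen and above every liver, as for 0.646% of all features, and all 4 mice were above 0 for 8.33% of features. With the Cy3 arrays turned the mean would be 0.0297 in Dll1 spleen, 0.0725 in wildtype liver, -0.0486 in Dll1 liver and -0.15 in wildtype spleen. The genotypes in liver differed by -0.0616 (limma, SE 0.0571, adjusted p = 0.935) and the organs in wildtype mice by 0.12 (limma, SE 0.111, adjusted p = 0.750), and neither passed.

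The high values came from row 14047, which lies in the stretch of less certain names. In Dll1 spleen row 14047 was 1.27, 0.57, 0.60 and 0.59, a mean of 0.76 ± 0.34 (SD, n = 4), or 1.69 times the pool. Row 6830 was -0.095, -0.0715, -0.0255 and 0.039 in the same spleens, a mean of -0.0382 ± 0.059. The rows did not overlap there, and over all 16 values they correlated at 0.228.

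The 2 arrays of a mouse also disagreed in row 14047. In Dll1 spleen mouse 1 had -0.005 in Cy5 and 2.54 in Cy3, mouse 2 had 1.23 and -0.091, and mouse 3 had 1.17 and 0.031. Only mouse 4 had like values, 0.63 and 0.55. In wildtype spleen the row averaged -0.53 in Cy5 and 0.48 in Cy3. Turned, the mean of row 14047 in Dll1 spleen would be -0.000375.

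Row 6830, outside that stretch, was slightly below the pool in 2 groups on the reading as deposited. It was -0.20, -0.18, -0.20 and -0.29 in wildtype spleens, a mean of -0.22 ± 0.0477 (SD, n = 4), with all 4 mice below 0 (6.98% of features in that group) but 5 of 8 arrays. In Dll1 livers it was -0.215, -0.129, -0.326 and -0.0395, a mean of -0.18 ± 0.122, with 7 of 8 arrays below 0. With rows tested apart, neither passed (limma, SE 0.0872, adjusted p = 0.801 in wildtype spleen, and SE 0.0598, adjusted p = 0.801 in Dll1 liver). In wildtype liver the row averaged 0.0219 ± 0.0729. Turned, its means would lie above 0 in both of these low groups, at 0.205 in wildtype spleen and 0.0814 in Dll1 liver.

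The genes most like H2az1 over the 16 values were Myo1e (r = 0.887), a class I myosin, Isoc2b (0.883) and Tgif2 (0.864), a homeobox repressor of TGF-beta signalling. Without the 2 values farthest out these were 0.743, 0.734 and 0.619. For row 14047 alone the list was Myo1e (0.886), Exph5 (0.875) and Pi4k2b (0.875), and for row 6830 alone Sod1 (0.736), Serbp1 (0.715) and Stard10 (0.699). No gene was on both lists.

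Dek lay below the pool in the cloned spleens of both genotypes and near it in liver. In wildtype spleens it was -0.57, -0.86, -0.87 and -1.05, a mean of -0.84 ± 0.196 (SD, n = 4), or 0.560 times the pool. All 8 arrays were below 0, and these spleens chose the gene, so no test is given. In Dll1 spleens, not used in the choice, it was -0.90, -0.52, -0.225 and -0.2165, a mean of -0.47 ± 0.32, also below 0 on 8 of 8 arrays. That mean did not pass over all features (limma, SE 0.188, adjusted p = 0.838, below 0 in 4 of 4 mice, as were 7.27% of features). The genotypes overlapped, since Dll1 mouse 1 lay within the wildtype range.

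In the livers Dek was -0.049, 0.064, 0.0535 and 0.0195 in wildtype mice, a mean of 0.022 ± 0.051 (SD, n = 4; limma, SE 0.0384, adjusted p = 0.850). It was -0.22, -0.0265, -0.012 and 0.034 in Dll1 mice, a mean of -0.0561 ± 0.112 (limma, SE 0.0558, adjusted p = 0.830). The genotypes in liver differed by -0.0781 (limma, SE 0.0661, adjusted p = 0.935). In wildtype mice every spleen was below every liver, a difference of 0.86 between organs that is given with no test. The same separation held for 3.85% of all features. In Dll1 mice liver exceeded spleen by 0.41 without passing (limma, SE 0.182, adjusted p = 0.654), and the groups just overlapped, with the lowest liver at -0.22 and the highest spleen at -0.2165.

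The near-zero liver means of Dek hid a split by dye in wildtype mice, which was not particular to Dek. Over all rows of wildtype liver the Cy5 and Cy3 means correlated at -0.70, and Car2 row 10494 averaged -0.23 and 0.35. For Dek, all 4 wildtype livers were below 0 in Cy5 (mean -0.27) and above 0 in Cy3 (mean 0.31). On the turned reading the mean of Dek would therefore be -0.29. The other turned means would be 0.0626 in Dll1 liver, 0.25 in wildtype spleen and -0.0242 in Dll1 spleen. In spleen the dyes ran the same way as deposited: in Dll1 mouse 1 Dek was -0.88 in Cy5 and -0.91 in Cy3, and in mouse 4 it was -0.204 and -0.229.

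Dek's pattern was most like that of genes of DNA synthesis and of carbonic anhydrase. Rrm2 correlated with it at 0.933, Pcna, the sliding clamp of DNA replication, at 0.931 and Car2, the carbonic anhydrase of red cells, at 0.918 over the 16 values. The 7 rows of these genes gave 0.835 to 0.920 each. Without the 2 values farthest out r was 0.909, 0.909 and 0.936. Liver and spleen form separate clusters, so r was also taken within spleen, where it was 0.829, 0.880 and 0.807 over 8 values, and within liver, where it was 0.701, 0.256 and 0.322. The values share mice, pools and arrays.

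Pcna was -0.57, -0.98, -0.56 and -0.85 in wildtype spleens and -0.91, -0.72, -0.0707 and 0.0665 in Dll1 spleens. Rrm2 was -0.60, -0.90, -0.54 and -0.77 in wildtype spleens and -0.586, -0.61, -0.22 and 0.0745 in Dll1 spleens. Dek, Pcna and Rrm2 (the last as the mean of 2 rows) were all lower in Dll1 mice 1 and 2 than in mice 3 and 4. In Rrm2 row 4573 alone mouse 1 was not lower than mouse 3, at -0.147 and -0.15. Turned, the means of Pcna and Rrm2 would be 0.25 and 0.30 in wildtype spleen and 0.29 and 0.23 in Dll1 spleen. In the livers as deposited the group means of all 3 genes lay between -0.0561 and 0.0605.

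**Figure D3:**
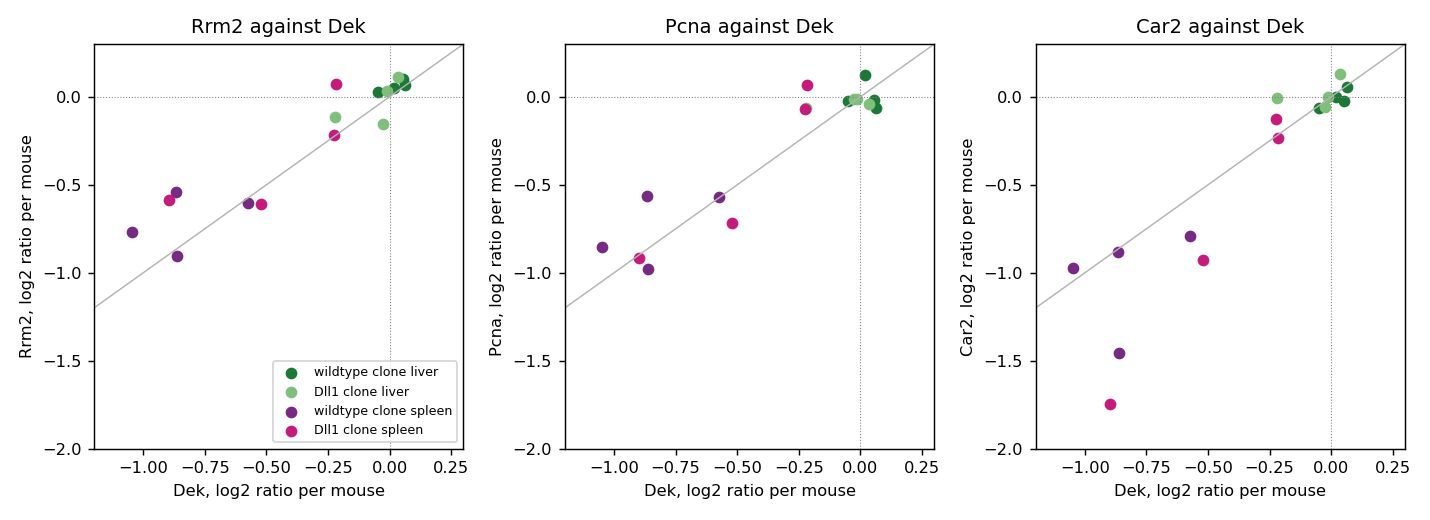
Log2 ratio per mouse (cloned mouse over pool) of Rrm2, Pcna and Car2 against Dek, 1 point per mouse and organ (16 points in each panel), with the line of equal values in grey. The livers gather near 0, and the spleens stretch down to -1.05 for Dek, with Car2 reaching -1.75 in the Dll1 spleen where Dek was -0.90.

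Most of a wider list of proliferation genes also averaged below the pool in spleen. Of 30 listed genes 25 were measured. Their median per mouse was -0.29, -0.32, -0.38 and -0.28 in wildtype spleens, and -0.347, -0.2675, -0.069 and 0.016 in Dll1 spleens. None of the 25 passed in either spleen group, where 0% of all features passed. In each spleen group 20 of 25 were below 0 in the mean, where 47.3% (wildtype) and 49.2% (Dll1) of all features were. Turned, 8 and 13 of 25 would be below 0. In liver 16 of 25 were above 0 and 9 below in each genotype, with medians of 0.0133 and 0.0217. Of all features 45.2% (wildtype) and 51.7% (Dll1) were below 0 there. Turned, 12 and 11 of 25 would be below 0. The B cell list went the other way in wildtype spleen, with 8 of 8 measured genes above 0 (median 0.25), and 6 of 8 were above 0 in Dll1 spleen (median 0.13); turned, 5 and 3 of 8 would be. Of 12 neutrophil markers 8 were below 0 in Dll1 spleen (median -0.34), with medians of -0.48 and -0.42 in mice 1 and 2 and of -0.0355 and -0.13 in mice 3 and 4. In wildtype spleen 5 of 12 were below 0 (median 0.0373), and turned, 5 of 12 would be in Dll1 and 6 of 12 in wildtype spleen. Whether the mix of cells sets the value of Dek was not tested.

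The 3 members did not move together over all 16 values. There the H3f3a row correlated with Dek at 0.227 and with H2az1 at -0.61, or -0.205 without the 2 values farthest out. Dek and H2az1 correlated at -0.0348. Within groups of 4 mice, r between the H3f3a row and Dek was 0.998 in wildtype liver and 0.324 in Dll1 liver. It was -0.00609 in wildtype spleen and 0.959 in Dll1 spleen. In Dll1 spleen mouse 1 stood at an extreme in each, with the lowest H3f3a row (-2.34), the lowest Dek of its group (-0.90) and the highest H2az1 (0.59).

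None of the measured genes on 4 lists related to these proteins passed the threshold in any of the 4 groups. Hira, Atrx and Srcap, named above for placing H3.3 or H2A.Z, had no named row and were not measured. Of all features 0.106% passed in wildtype liver and 0% in each of the other groups. The 4 lists held the other histone variants (9 of 22 measured), H3.3 deposition and histone chaperones (16 of 21), H2A.Z exchange (12 of 22) and partners or modifiers of Dek (7 of 12). Their medians lay between -0.063 and 0.0322 in the livers and between -0.15 and 0.107 in the spleens. All features had medians between -0.00325 and 0.0111 in the 4 groups.

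Among the other histone variants, 7 of 9 were below 0 in wildtype spleen and 5 of 9 in Dll1 spleen. Of all features 47.3% and 49.2% were below 0 there. In wildtype and Dll1 liver 6 and 8 of 9 were below 0, where 45.2% and 51.7% of all features were. Turned, 2 and 7 of 9 would be below 0 in the spleens and 4 and 5 of 9 in the livers. In the spleens the genes with the smallest p were H2ax, whose product marks DNA breaks when phosphorylated, and H2aj. H2ax averaged -0.22 (SE 0.104) in wildtype spleen and -0.80 (SE 0.447) in Dll1 spleen, and H2aj -0.21 (SE 0.137) and -0.38 (SE 0.192). In the livers H3f3b had the smallest p in both genotypes, at -0.13 (SE 0.0419) and -0.11 (SE 0.0448), followed by H2ax at -0.0959 (SE 0.0395) in wildtype and Cenpa, the centromeric H3, at -0.0829 (SE 0.0417) in Dll1. The limma adjusted p of these values ran from 0.345 to 0.838.

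Of the histone chaperones, 10 of 16 were below 0 in wildtype spleen and 8 of 16 in Dll1 spleen. Of all features 47.3% and 49.2% were below 0 there. In wildtype and Dll1 liver 7 and 10 of 16 were below 0, where 45.2% and 51.7% of all features were. Turned, 8 and 10 of 16 would be below 0 in the spleens and 6 and 10 of 16 in the livers. Asf1b, a carrier of H3 and H4 in dividing cells, averaged -0.43 (SE 0.0875) in wildtype spleen, and Rbbp4, a subunit of CAF-1, averaged -0.65 (SE 0.213). In Dll1 spleen Chaf1a, the large subunit of CAF-1, averaged -0.51 (SE 0.192) and Npm1, nucleophosmin, averaged 0.38 (SE 0.169). In wildtype liver Chaf1a was at 0.124 (SE 0.051) and Rbbp7 at -0.0791 (SE 0.0357), and in Dll1 liver Nasp, a carrier of histone H3, was at 0.14 (SE 0.0522) and Npm1 at -0.19 (SE 0.0493). The limma adjusted p ran from 0.423 to 0.838.

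In the machinery of H2A.Z exchange, 5 of 12 genes were below 0 in each spleen group. Of all features 47.3% (wildtype) and 49.2% (Dll1) were below 0 there. In wildtype and Dll1 liver 7 and 8 of 12 were below 0, where 45.2% and 51.7% of all features were. Turned, 6 and 3 of 12 would be below 0 in wildtype and Dll1 spleen and 2 and 4 of 12 in the livers. Anp32e, which removes H2A.Z, averaged -0.33 (SE 0.0986) in wildtype and -0.35 (SE 0.163) in Dll1 spleen, with limma adjusted p of 0.799 and 0.838. Actr8, of the INO80 complex, averaged 0.35 (SE 0.091) in wildtype spleen, and Meaf6, of acetyltransferase complexes, averaged -0.57 (SE 0.249) in Dll1 spleen. In the livers Ruvbl2 (-0.054), Meaf6 (-0.0581), Kat5 (-0.0741) and Dmap1 (-0.117) had the smallest p, with limma adjusted p between 0.608 and 0.805 for values up to 0.117 in size.

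Among the partners and modifiers of Dek, Cbx5, which encodes HP1 alpha, averaged -0.23 (SE 0.0927) in wildtype spleen and 0.15 (SE 0.175) in Dll1 spleen. Csnk2a2, a catalytic subunit of the kinase CK2 that phosphorylates Dek, averaged 0.18 (SE 0.0958) and -0.37 (SE 0.253) there. Hmgb1, another abundant DNA-bending protein, averaged -0.25 (SE 0.0644) in wildtype liver, where U2af1, a splicing factor, averaged 0.0825 (SE 0.0388). In Dll1 liver Csnk2a1 averaged -0.0847 (SE 0.0411) and Fbxw7 0.0619 (SE 0.0555). The limma adjusted p ran from 0.296 for Hmgb1 to 0.868.

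**Figure D4:**
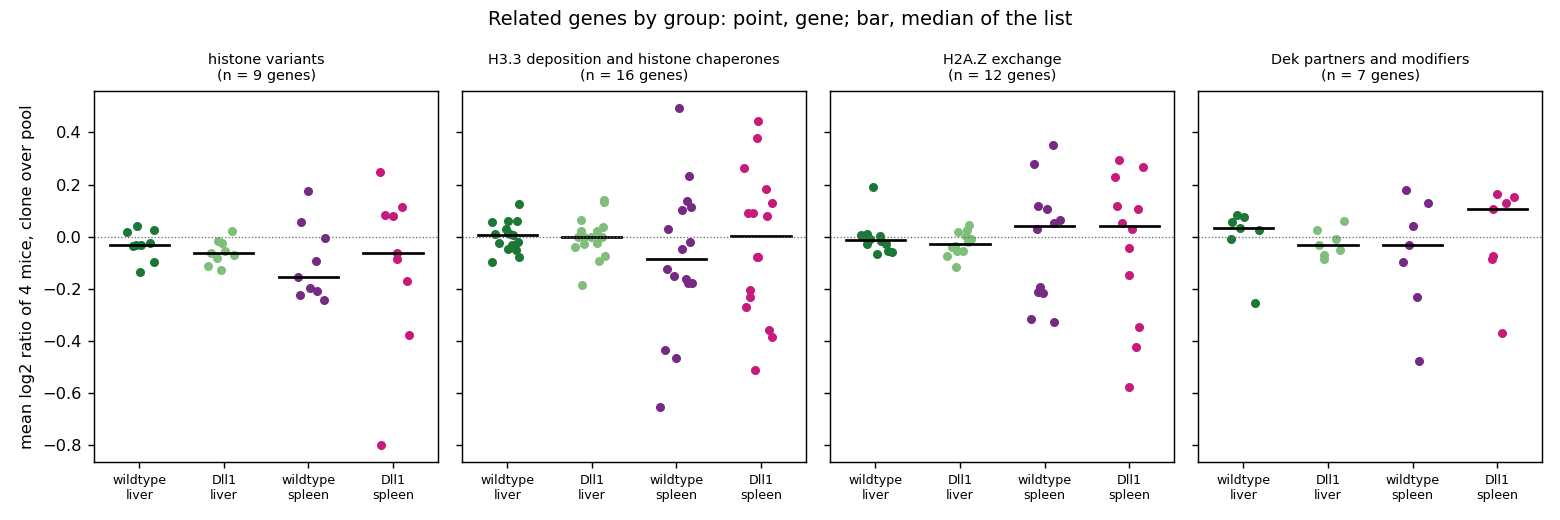
Mean log2 ratio of 4 mice (cloned mouse over pool) for each measured gene of 4 lists of related genes, by group; points are genes and bars are list medians. The medians lie near 0 in all groups, and the genes spread more in spleen than in liver, down to -0.80 for H2ax in Dll1 spleen.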

How the data were processed

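The deposited table gave 1 log2 ratio per spot and array. That the values are log2 ratios was read from the deposited values; the base, background correction, normalization and centring used by the authors are not stated in what was read here. RNA was extracted with RNeasy columns and labelled indirectly with Cy3 or Cy5, per the labels' protocols. Ratios over 9 in size (1183 values) were set to missing, and no further scaling was applied. Rows were named from the platform's probe 11 places earlier (12771 probes with 1 current symbol each, 12760 rows named), rows of a gene were averaged per array, and both arrays of a mouse were averaged. Arrays with the mouse in Cy3 were read as already turned. limma 3.58.1 (R 4.3.3) fitted each group of 4 mice against 0, genotypes within organ and organs within genotype, for features with values in at least 3 mice, with Benjamini-Hochberg adjustment over all features and a threshold of 0.05, two-sided. The fit was tested on simulated data.

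The members and gene lists were chosen with earlier results of these data known. The text names the members, the 3 genes most like each by Pearson correlation over 16 mouse values, and from each list of related genes the 2 with the smallest p in each group. Alternatives changed the reading of the Cy3 arrays, the limit on size, centring, scaling, row names, dyes used, probe averaging, completeness, blocks and mice. The labels give the same mouse identifiers in both organs, but the main fits between organs did not use this pairing. The fit with the mouse as a block was an alternative. Same-mouse deviations correlated at 0.000613 to 0.0779. The precision is limited by the number of mice, 4 per group, since both arrays of a mouse were averaged before the fit. Array medians lay between -0.067 and 0.079, and 74 to 2966 values were missing per array. RefSeq's promoter table (GRCm38.p6) held an entry for each member. Labels do not say whether clones came from separate donors, so p-values measure the spread between these mice.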

Additional observations from a re-analysis of the deposited data

Results flagged for a closer look

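In the Dll1 spleens, mouse 1 stood apart from the other 3 in the H2az1 row 14047, with a mean of both arrays of 1.268 against 0.57 to 0.60. It is shown because its gap to the nearest mouse makes up most of the range of the group, as a description, since these spleens chose the gene. The value came from 1 of its 2 arrays, at 2.54 with the mouse in Cy3 and -0.005 with it in Cy5. Which array is nearer to the mouse's own value was not tested.

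All 4 Dll1 livers lay below 0 and all 4 Dll1 spleens above 0 for H2az1 as the mean of both rows, a difference between the organs of -0.4228. The Dll1 spleens chose the gene, so the difference is given with no test. All 4 mice were below 0 in Dll1 liver for 9.85% of features and above 0 in Dll1 spleen for 8.33%. The share of features with both was not counted. In row 6830 alone the difference was -0.14, and in row 14047 alone it was -0.71. Neither row alone had the full split. In row 6830, 3 of 4 Dll1 spleens were below 0, and in row 14047 only 1 of 4 Dll1 livers was.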

How the results depend on the processing

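Across the alternatives, 144 of 176 member means kept their side of the threshold and a value within 1 SD of the main one; of the counts, 105 stayed within 1.5 times and 23 moved. With the Cy3 arrays turned, 9421 features passed in wildtype liver, 163 in wildtype spleen, 10 in Dll1 liver, 6892 for genotype in liver and 3536 for organ in wildtype mice. The H3f3a row then averaged 0.2658, 0.3483, -0.0715 and 0.1691 in wildtype liver, wildtype spleen, Dll1 liver and Dll1 spleen, Dek averaged -0.2882, 0.2512, 0.06262 and -0.02425, and H2az1 averaged 0.02969 in Dll1 spleen. From Cy5 arrays alone the counts were 5938 (wildtype liver), 3076 (genotype in liver) and 2033 (organ in wildtype), and from Cy3 arrays alone 7680, 3871 and 1021. By Cy5 and Cy3 the H3f3a row was -0.4842 and -1.016 in wildtype liver and -0.04375 and -0.7403 in wildtype spleen, and Dek was -0.2663 and 0.3103 in wildtype liver and -0.5862 and -1.089 in wildtype spleen. In wildtype liver Dek passed on the turned reading and with either dye alone, with opposite signs by dye. Passes of a member in a group that chose it are not read as tests and are not given.

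Without the shift of names, the rows called H3f3a averaged -0.06013, 0.3534 and 0.8624 in wildtype liver, Dll1 liver and Dll1 spleen, those called Dek 0.2328 and -1.786 in wildtype and Dll1 spleen, and those called H2az1 -0.2554 in Dll1 spleen, with 5 features passing for organ in wildtype mice. Scaling each array gave -0.8167 for the H3f3a row in Dll1 liver, 0.1688 for H2az1 in Dll1 spleen and 1 feature in wildtype liver. The count in wildtype liver was 4 with all values kept, 37 with complete values only (14 for organ in wildtype mice), 31 with probes apart and 76 for single arrays with a dye term. That last fit gave 16 in wildtype spleen, and left the means of the H3f3a row in wildtype liver (-0.75) and of Dek in wildtype spleen (-0.8375) as they were. H2az1 rows 6830 and 14047 were -0.1771 and 0.0515 in Dll1 liver and -0.03825 and 0.7581 in Dll1 spleen. Dek has no row outside the stretch of less certain names, so that alternative gave no value.

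Leaving out 1 mouse gave 0 to 40 features in wildtype liver (0 without mouse 3, 40 without mouse 4, 6 without mouse 1 or mouse 2). With the replicate block, 0 features passed in the 4 comparisons between genotypes or organs, as without it, and no other call changed; across genotypes the mice share only a number (correlations -0.0166 to 0.11). No depth can be given for ratios. The turned marker lists and the checks of Hba-a1 were added after seeing the data.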
